A study of Mus musculus with 71 samples.

Results

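Caloric restriction was compared with a standard diet in the cerebellum of wild-type (WT) mice, using the 8 arrays of these groups (4 restricted, 4 standard-diet) out of 71 in the series. The members were chosen by the diet and genotype that the sample labels give, and no measured value entered the choice. RNA was read on 1-colour Illumina MouseRef-8 v2 bead arrays. All mice were male C57BL/6. Feeding lasted 8 months from an age of 4 months, and tissue was taken at 1 year. The standard group ate AIN-93G chow ad libitum, which supplies 64% of its calories as carbohydrate, 19% as protein and 17% as fat. The restricted group ate the same chow at 40% restriction. Other WT groups served for comparison: a high-fat diet with 60% of calories from fat (n = 4) and resveratrol at 100 mg per kg of chow (n = 5), both ad libitum. The same diets were given to Csbm/m mice, which carry a mutation of the DNA repair protein CSB and model Cockayne syndrome (6 restricted, 6 standard-diet, 7 high-fat, 6 resveratrol arrays). The labels do not say whether replicate arrays came from separate animals, so every p-value refers only to the spread among arrays, which may be technical.

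Caloric restriction lowers energy intake without malnutrition and lengthens life in rodents. In rodents it is accompanied by ketone body use and by a raised level of corticosterone, the ligand of the glucocorticoid receptor. In the brain it is known for effects on microglia, the resident macrophages, which express complement C1q and Fc receptor family genes. The cerebellum is built mainly of granule cells and Purkinje cells, whose defining genes include Gabra6, a GABA receptor subunit, and Pcp2, a Purkinje cell protein.

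A standard-diet array did not carry these cerebellar genes at the level of the others. On the log2 normalized intensity scale, which is used for every level below, Pcp2 stood at 6.14 on standard-diet array 1. It read 13.76, 13.84 and 13.35 on the other standard-diet arrays and between 13.91 and 14.25 on the restricted arrays. Array 1 was thus far below the other 7, which lay within 1 unit of each other. Gabra6 was also lowest there, at 4.65 against 10.30, 10.34 and 10.02. Forebrain cortical genes ran the other way: Tbr1, a transcription factor of cortical projection neurons, read 10.23 on array 1 against 5.05, 5.62 and 6.29 on the other standard-diet arrays and at most 4.79 on the restricted arrays. Camk2a, a kinase abundant in forebrain neurons, read 12.87 there against 9.22, 9.26 and 10.26. The mean of 23 tested Purkinje and granule cell marker probes was 8.18 on array 1 and 9.75 to 10.27 on the other 7. Array 1 correlated with the other 7 arrays at r = 0.934 to 0.953 across probes, whereas all other pairs reached 0.978 to 0.991. The tissue label of this array therefore goes against its markers, so the counts of calls are given with and without it, as are the genes described whose call is lost without it. Across the diet groups, 5 arrays had a marker mean under 9, and the other 4 of them are Csbm/m arrays. Raised Tbr1 was not confined to these 5. It read 7.7 on high-fat WT array 1, 7.66 and 7.03 on resveratrol WT arrays 2 and 3, and 9.23 on Csbm/m standard-diet array 4. Standard-diet WT arrays 2 to 4 also lay above every restricted WT array in Tbr1. The Tbr1 difference was -2.09 (SE 0.89) with all arrays and -0.95 (SE 0.84) without standard-diet array 1, so leaving it out did not remove it.

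**Figure D1:**
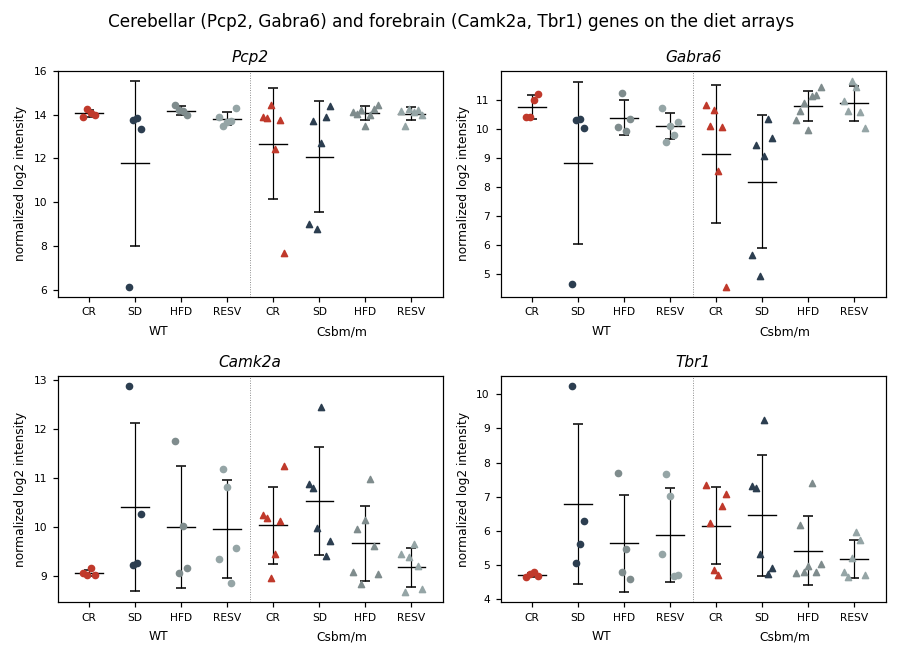
Log2 normalized intensity of cerebellar and forebrain marker genes on each of the 42 diet arrays, by group, with bars for the mean ± SD. Circles are WT and triangles Csbm/m, with restricted in red and standard-diet in dark grey. Among WT arrays, standard-diet array 1 stands apart, with Pcp2 at 6.14 and Tbr1 at 10.23, while the restricted WT arrays hold Pcp2 between 13.91 and 14.25. Tbr1 is also raised on other arrays, among them high-fat WT array 1 (7.7) and resveratrol WT arrays 2 and 3 (7.66 and 7.03). In Csbm/m, Pcp2 is also low on restricted array 6 (7.68) and standard-diet arrays 1 and 3 (9.01 and 8.76).

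The groups also differed in overall brightness. The highest intensity on an array was 32704.5 to 35117.9 on restricted arrays and 50054.2 to 50745.2 on standard-diet arrays, with no overlap (two-sided exact permutation test, p = 0.0286, the smallest that 70 splits allow; 0.0858 after Benjamini-Hochberg adjustment over 6 array measures). The share of probes detected (detection p under 0.01) was 49.6% to 51.3% on restricted arrays and 53.9% to 55.6% on standard-diet arrays, again without overlap (exact permutation p = 0.0286, adjusted 0.0858). On Csbm/m arrays this share ran from 48.6% to 52.4%. WT high-fat arrays overlapped the restricted ones in brightness, at 31675.5 to 36157.6. The mean background was 67.2 ± 5.25 against 73.4 ± 1.46 (SD, n = 4 each; exact permutation p = 0.0857). The labels and files used here give no chip or scan date, so diet and chip cannot be told apart.

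Between restricted and standard-diet WT, 324 of 14883 tested probes differed, or 2.18% (limma, Benjamini-Hochberg adjusted p under 0.05). Of these, 264 were higher under restriction (1.77%) and 60 were lower (0.403%), so 81.5% of the calls were higher. That balance depended on the scaling, with 299 higher and 302 lower calls by a z-score per array and 250 and 97 by median centring. With the highest intensity of each array as a covariate, 45 probes were called higher and 0 lower (limma). Brightness parts these groups without overlap, so the SEs of the named genes were larger in this fit. A call lost there therefore cannot part diet from brightness. The higher probes named 242 genes and the lower probes 54 genes. The 4 restricted and 4 standard-diet arrays did not overlap for 306 of the 324, whereas 1708 of all tested probes (11.5%) had arrays that did not overlap (6.22% with restriction higher and 5.25% with it lower). At an unadjusted p under 0.05, 2250 probes passed. Without standard-diet array 1 the counts were 205 higher and 27 lower, of which 193 and 20 were among the original calls. Without the 5 arrays low in cerebellar markers they were 237 higher and 55 lower, of which 202 and 27 were among the original calls. Leaving out standard-diet array 4 gave 29 lower calls, and leaving out restricted array 1, 3 or 4 gave 25, 31 and 23. The higher calls were between 191 and 207 in these fits.

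The higher calls were mostly dim probes. Only 86 of the 264 (32.6%) were detected on all 8 arrays, with a median log2 difference of 0.63. With array brightness as a covariate, 3 higher calls were detected on all 8 arrays. A further 100 (37.9%) were detected on no standard-diet array, with a median of 1.13, and 24 were detected on none of the 8. Over all tested probes, 11976 (80.5%) were detected on all 8 arrays, and 0.88% on a restricted array but on no standard-diet array. Among the 60 lower calls, 28 were detected on all 8 arrays and 31 (51.7%) on a standard-diet array but on no restricted array, a class that held 7.89% of all tested probes. The plot of level against change shows these dim calls at the left edge.

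**Figure D2:**
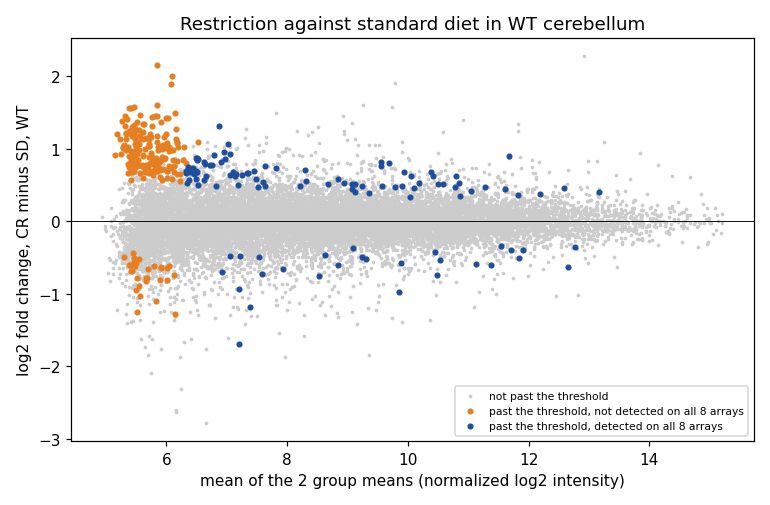
Log2 difference between restricted and standard-diet WT (vertical) against the mean log2 level over the 8 arrays (horizontal) for the tested probes, with called probes that were detected on all 8 arrays in blue and the other called probes in orange. The orange points gather at low levels, and 86 higher and 28 lower calls are blue.

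Among the genes that fell, the one with the largest decrease was Fcrls, an Fc receptor-like gene that in mouse brain marks microglia. It read 6.99, 6.13, 6.29 and 6.03 on the restricted arrays and 8.79, 7.74, 7.77 and 7.92 on the standard-diet arrays. Every restricted array was below every standard-diet array, as the rule that named the genes of largest change requires. The log2 difference was -1.69 (SE 0.27, limma adjusted p = 5.68e-05), a 3.23-fold lower level. Without standard-diet array 1, its highest array, the difference was -1.45 (adjusted p = 0.00108). Fcrls was also lower under restriction than under high-fat diet (-1.12, limma adjusted p = 0.0127) and resveratrol (-1.43, limma adjusted p = 0.000291). In those groups Fcrls was highest on arrays with raised Tbr1, high-fat array 1 (7.83) and resveratrol array 2 (8.35). Their lowest arrays, at 7.1 and 7.18, still lay above every restricted WT array. The part of tissue content in the Fcrls levels was not tested. In Csbm/m mice it read 5.66 to 6.64 under restriction (median 6.40, n = 6) and 7.33 to 8.57 on the standard diet (median 7.68, n = 6), so the groups did not overlap there either. The decrease in Csbm/m was -1.55 (SE 0.22, adjusted p = 0.000175), and the difference between the genotypes' decreases was -0.14 (adjusted p = 0.949).

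C1qb, which encodes a chain of the complement starter C1q made by microglia, read 10.53, 10.24, 10.36 and 9.91 under restriction and 10.92, 10.89, 10.64 and 10.72 on the standard diet. The groups did not overlap, though restricted array 1 came close to standard-diet array 3. The log2 difference was -0.53 (SE 0.14, adjusted p = 0.022), and it missed the threshold without standard-diet array 1 (-0.49, adjusted p = 0.0873). In Csbm/m the decrease was -0.56 (SE 0.11, adjusted p = 0.0164) with all arrays and -0.53 (adjusted p = 0.107) without the 5 low-marker arrays. In WT the restricted level was close to that on high-fat diet (difference 0.03, adjusted p = 0.946). The other C1q chains had smaller differences that did not pass: -0.25 for C1qa (adjusted p = 0.481) and -0.28 for C1qc (adjusted p = 0.302).

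The promoters of these microglial genes are shown. Both genes fell in WT and in Csbm/m, as did Wfdc18, described below, whose promoter is not shown. Each window is 300 bases long, most of it before the start of transcription, and comes from RefSeq's annotation of GRCm38.p6. Capitals mark AGGAAG or its reverse complement CTTCCT, a core bound by ETS-family factors such as PU.1, the factor that specifies macrophages and microglia. Fcrls lies on the minus strand at chr3:87263475-87263774 and holds 4 matches, C1qb on the minus strand at chr4:136886151-136886450 and holds 2. The C1qb match nearest the end of the window lies after the start of transcription.
Fcrls: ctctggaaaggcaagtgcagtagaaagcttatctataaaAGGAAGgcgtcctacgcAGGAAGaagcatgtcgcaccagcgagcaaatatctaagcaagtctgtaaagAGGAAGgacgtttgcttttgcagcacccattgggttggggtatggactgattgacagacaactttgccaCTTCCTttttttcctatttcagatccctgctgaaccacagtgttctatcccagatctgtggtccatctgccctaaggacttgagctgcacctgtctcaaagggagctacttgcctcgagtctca
C1qb: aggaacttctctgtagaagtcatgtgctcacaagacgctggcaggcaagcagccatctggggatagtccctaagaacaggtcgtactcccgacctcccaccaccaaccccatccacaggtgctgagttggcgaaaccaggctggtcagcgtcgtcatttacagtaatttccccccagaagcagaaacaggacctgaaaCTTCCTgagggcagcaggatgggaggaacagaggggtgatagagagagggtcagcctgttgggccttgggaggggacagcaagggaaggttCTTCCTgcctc
Searched on both strands, the motif occurred in 32.9% of 10712 promoters of the tested genes in the table, or in 37.5% of these 8212 genes. It occurred in 24 of 43 genes called lower (55.8%) and 87 of 201 called higher (43.3%). A match of these letters describes the window and is not a measured binding site.

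Cd86, a costimulatory receptor of antigen-presenting cells, was also called lower. It read 5.51, 5.27, 5.18 and 5.20 against 6.27, 6.00, 5.98 and 6.02. It was detected on all 4 standard-diet arrays, as the naming rule requires, and on no restricted array. However, the lowest level of a detected probe was 6.00 to 6.18 on restricted arrays and 5.60 to 5.75 on standard-diet arrays. The Cd86 standard-diet mean of 6.07 lay among those restricted limits, so no lower bound on the fold could be given. The difference was -0.78 (SE 0.14, adjusted p = 0.000511) and -0.71 without array 1 (adjusted p = 0.00491). The other Cd86 probes moved the same way without passing, by -0.32 and -0.52.

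A list of microglial and macrophage markers gave little beyond these genes. Of its 12 tested probes, C1qb was the 1 called lower and 0 were called higher. The median log2 difference was -0.24, or -0.20 without standard-diet array 1, beside 0.00 over all tested probes, and 10 of 12 differences were negative. Aif1, a calcium-binding protein of microglia, gave -0.46 and -0.45 with its 2 probes, and Tmem119, a microglial membrane protein, gave -0.48 (adjusted p = 0.146). Cx3cr1, the fractalkine receptor, differed by 0.03 and Trem2, a lipid-sensing receptor, by -0.06. The mean level of the list was 8.26 to 8.75 on restricted and 8.61 to 8.85 on standard-diet arrays, so the groups overlapped. In bulk tissue, fewer cells of a type and less RNA per cell cannot be told apart.

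Wfdc18, which encodes a secreted protein with a whey acidic protein domain, read 5.77, 5.73, 5.29 and 5.21 under restriction and 7.60, 6.48, 6.59 and 6.45 on the standard diet. Array 1 was its highest. It was detected on no restricted array, which makes it at least 1.58-fold lower (log2 difference -1.28, SE 0.29, adjusted p = 0.00852). The bound sets the standard-diet mean against the lowest level of a detected probe on each restricted array. That mean was 6.78 with array 1 and 6.50 without it, so the bound is smaller without array 1. The call was lost without array 1 (-1.01, adjusted p = 0.0846). In Csbm/m the decrease was -1.64 (SE 0.24, adjusted p = 0.000218). Unlike Fcrls, Wfdc18 in restricted WT was near its level on the other ad libitum diets: the difference was -0.28 against high-fat (adjusted p = 0.707) and -0.17 against resveratrol (adjusted p = 0.792).

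The other genes of largest decrease were spread over unlike functions. Those detected on all 8 arrays were Lin7b, a synaptic scaffold protein (-0.97, adjusted p = 0.0303), Kcnk6, a background potassium channel (-0.94, adjusted p = 0.0118), Srebf2, the transcription factor of cholesterol synthesis (-0.76, adjusted p = 0.0302), and Tbc1d10a, a regulator of Rab GTPases (-0.70, adjusted p = 0.0133). Lin7b read 9.72, 9.41, 9.14 and 9.24 under restriction and 10.86, 10.35, 9.93 and 10.25 on the standard diet. Its 3 other probes gave -0.55 to -0.58 and did not pass. Srebf2 read 8.37, 8.46, 7.91 and 7.87 against 9.46, 8.92, 8.51 and 8.76, so that its highest restricted array lay just under its lowest standard-diet array. For both genes array 1 was highest, and without it neither passed (adjusted p = 0.163 for Lin7b and 0.199 for Srebf2). Rab6a, a GTPase of Golgi traffic, named after its values were seen, read 8.55, 8.63, 8.43 and 8.55 against 9.36, 8.87, 9.21 and 9.15. Its difference of -0.61 (SE 0.11, adjusted p = 0.000232) also passed without array 1 (-0.54, adjusted p = 0.00309) and was lower than under high-fat (-0.39, adjusted p = 0.0293) and resveratrol (-0.49, adjusted p = 0.00149).

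The remaining 8 of the 15 lower genes named by the rule were near the background and undetected on every restricted array: Spink10, a serine protease inhibitor (-1.25), Fzd2, a Wnt receptor (-1.10), Kash5, a nuclear envelope protein of meiosis (-0.90), Mbd3l2 (-0.82), Tapbp, which loads peptides onto MHC class I (-0.81), Prkch, a protein kinase C (-0.81), Qsox1, a sulfhydryl oxidase (-0.79), and Bpnt1, a nucleotidase (-0.69). Taken as lower bounds, the decreases were 1.24-fold for Tapbp, 1.19-fold for Fzd2, 1.14-fold for Prkch and 1.02-fold for Spink10. These bounds use the standard-diet mean with array 1. Without that array the Prkch mean was 6.07, among the lowest detected levels of the restricted arrays (6.00 to 6.18), so its bound is lost. For Kash5, Mbd3l2, Qsox1 and Bpnt1 no lower bound on the fold could be given. A second Tapbp probe went up by 0.43 without passing (limma adjusted p = 0.249). The 3 other Bpnt1 probes, at levels of 8.71 to 9.49, differed by -0.08 to -0.18. Of all 54 lower genes, 25 had another tested probe and in 0 of them was another probe called lower. The median over those 42 probes was -0.18, and 28 of them shared the sign. Of the 15 named genes, 4 passed without standard-diet array 1 (Fcrls, Cd86, Mbd3l2 and Bpnt1) and 9 passed without the 5 arrays. With the highest intensity of the array as a covariate 0 passed, in a fit with larger SEs. Fcrls then differed by -1.19 (SE 0.45, limma adjusted p = 0.908) and Wfdc18 by -0.25 (SE 0.46, limma adjusted p = 0.996).

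**Figure D3:**
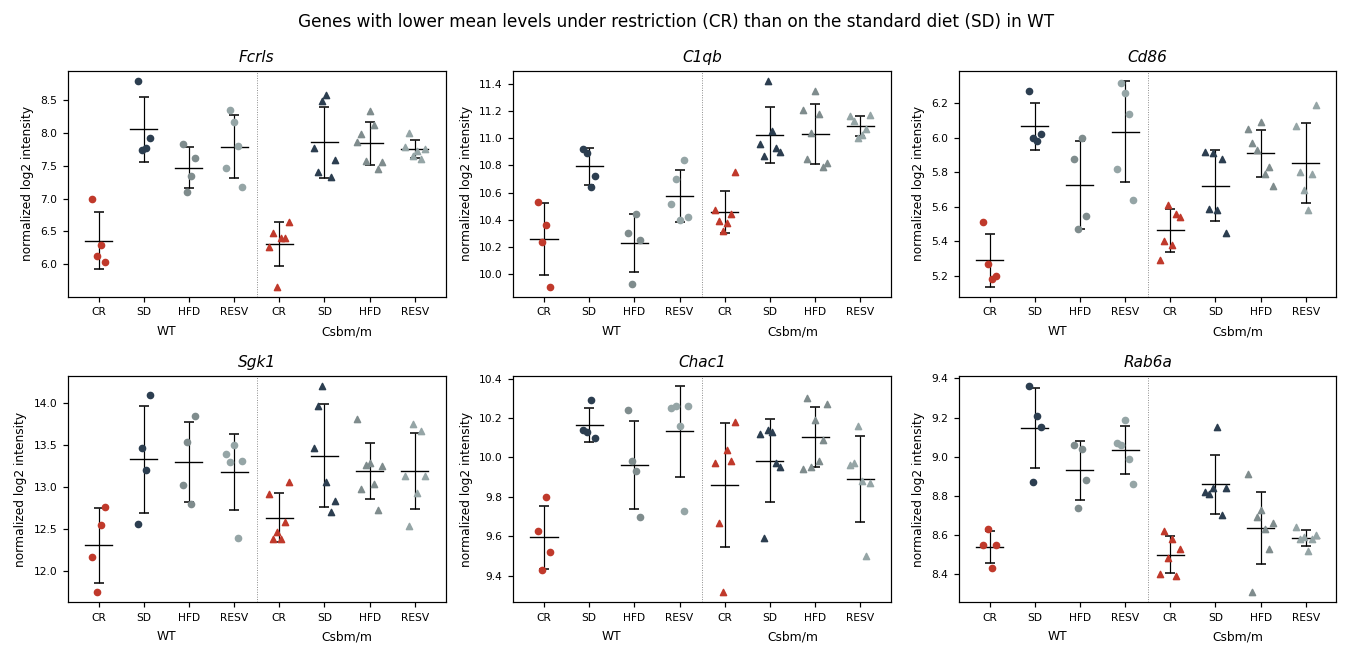
Log2 normalized intensity of Fcrls, C1qb, Cd86, Chac1 and Rab6a, called lower under restriction, and of Sgk1, not called with all arrays, by group, with a point for each array and bars for the mean ± SD; circles are WT and triangles Csbm/m, red is restricted. Fcrls lies between 6.03 and 6.99 on restricted WT arrays and between 7.74 and 8.79 on standard-diet WT arrays, with the same order in Csbm/m.

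Among genes that rose and were detected on all 8 arrays, Bmx had the largest increase, the only such gene among the 15 higher genes named by the rule. Bmx, a Tec-family tyrosine kinase, read 7.62, 7.37, 7.57 and 7.57 under restriction and 6.29, 6.29, 6.19 and 6.12 on the standard diet. The groups lay more than 1 unit apart (1.31, SE 0.15, adjusted p = 1.34e-07). Its level in all 4 Csbm/m groups, with means of 7.53 to 7.63, was that of restricted WT. The interaction with genotype, which contains the WT difference that chose the gene, was 1.29 (limma adjusted p = 5.46e-05).

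The brighter higher genes that follow were chosen after their values were seen. Rbm12, an RNA-binding protein, was called with all 4 of its probes, which rose by 0.52 to 0.73 (adjusted p 0.000124 to 0.0212) from levels between 7.46 and 8.56. Chpt1, a phosphatidylcholine synthesis enzyme, was called with 2 of 3 probes (0.80 and 0.76), but its standard-diet array 1 at 8.37 lay far under the other standard-diet arrays at 9.46, 9.59 and 9.72. Without it the larger difference became 0.49 (adjusted p = 0.258). Zfp467, a zinc finger factor, read 9.86, 9.97, 9.81 and 10.24 against 9.14, 9.42, 9.04 and 8.99. Its increase of 0.82 (SE 0.17, adjusted p = 0.00195) was as large without array 1 (0.82, adjusted p = 0.00659). Against high-fat diet (0.17, adjusted p = 0.686) and resveratrol (0.35, adjusted p = 0.207) it did not pass. Hsd11b1, which turns inactive into active glucocorticoid inside cells, read 12.06, 12.00, 12.27 and 12.19 against 10.12, 11.44, 11.91 and 11.44. Array 1 was its lowest, and the increase of 0.90 (adjusted p = 0.0372) fell to 0.53 without it (adjusted p = 0.314).

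Other higher calls detected on all 8 arrays, likewise named after their values were seen, were of unlike functions. Ptch1, the Hedgehog receptor, was higher by 0.88 (adjusted p = 0.00271), Ifnar2, an interferon receptor chain, by 0.82 (adjusted p = 0.00368), and Ppp2r2c, a brain subunit of protein phosphatase 2A, by 0.93 (adjusted p = 3.03e-06). Ptch1 was not called against high-fat diet (0.51, adjusted p = 0.137) or resveratrol (0.55, adjusted p = 0.0617). For Ppp2r2c the difference was 0.24 against high-fat diet (adjusted p = 0.374) and 0.53 against resveratrol (adjusted p = 0.00524). A second probe differed by 0.24 for Ifnar2 (adjusted p = 0.38) and by -0.03 for Ppp2r2c, at a higher level (adjusted p = 0.955). With array brightness as a covariate none of these passed: Ptch1 differed by 0.00 (adjusted p = 0.999), Ifnar2 by 0.24 (adjusted p = 0.996) and Ppp2r2c by 0.55 (adjusted p = 0.821). The calls of Zfp467, Chpt1, Hsd11b1 and Acat1 were lost in that fit too.

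Acat1, the mitochondrial enzyme that cleaves acetoacetyl-CoA in ketone body use, was the only gene called higher in both genotypes. It read 6.23, 6.30, 6.29 and 6.03 under restriction and 5.49, 5.79, 5.17 and 5.28 on the standard diet, without overlap. The increase was 0.78 (SE 0.15, adjusted p = 0.00126) and 0.80 without array 1 (adjusted p = 0.0032). It was also higher than under high-fat diet (1.28, adjusted p = 1.39e-07) and resveratrol (1.02, adjusted p = 4.8e-06). In Csbm/m the increase was 0.58 (SE 0.12, adjusted p = 0.0425), or 0.67 without the 5 low-marker arrays (adjusted p = 0.094). The probe is dim: its intensities before normalization began at 96.9 on restricted arrays and ended at 110.4 on standard-diet arrays, so the groups overlapped on that scale. In the list of fatty acid oxidation and ketone body genes, Acat1 was the only 1 of 14 probes called, and the list's median was 0.00.

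**Figure D4:**
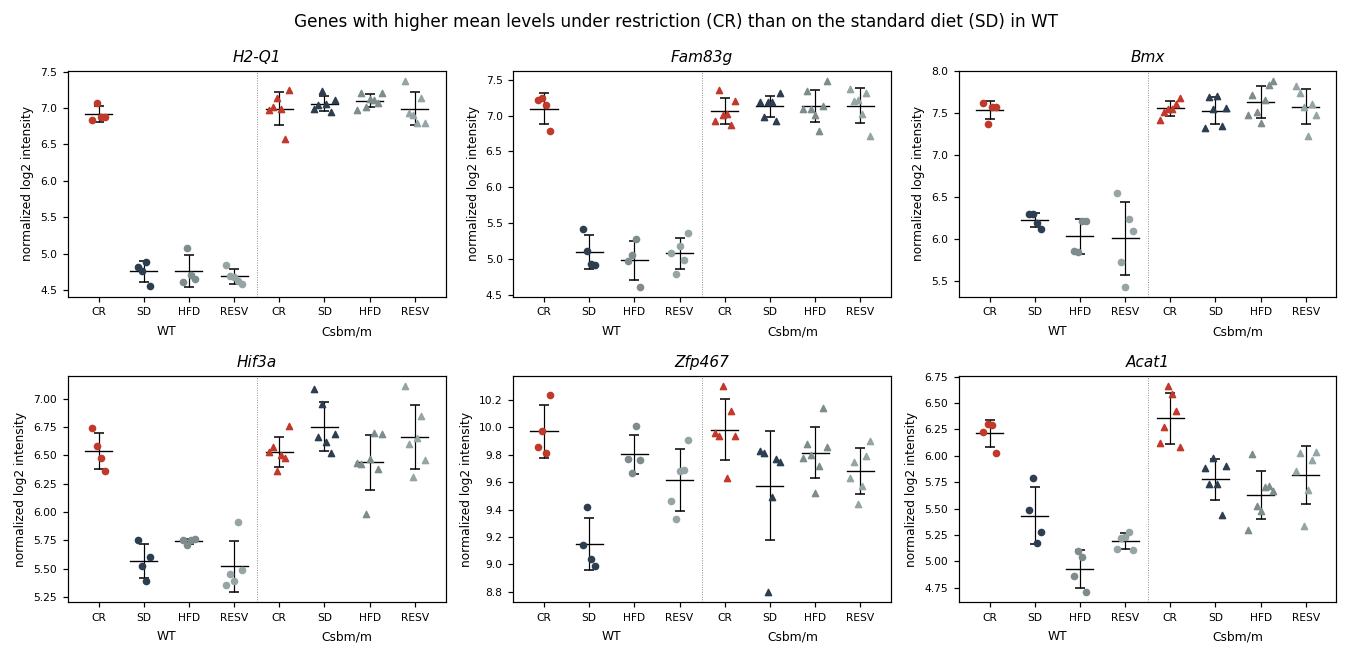
Log2 normalized intensity of genes higher under restriction, by group, with a point for each array and bars for the mean ± SD; circles are WT and triangles Csbm/m, red is restricted. For H2-Q1 and Bmx the restricted WT arrays lie with the Csbm/m arrays and above the other WT arrays, whereas Zfp467 shows no such split.

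The other 14 of the 15 higher genes named by the rule were detected on all 4 restricted arrays, as the rule requires, and on no standard-diet array. H2-Q1, a non-classical MHC class I gene, read 6.84, 7.07, 6.88 and 6.88 under restriction and 4.82, 4.77, 4.89 and 4.56 on the standard diet. Before normalization its intensities were 151.3, 151, 190.3 and 134.5 against 80.4, 75.5, 80.5 and 64.6, so the groups were apart on that scale too. H2-Q1 was at least 2.36-fold higher under restriction (log2 difference 2.16, SE 0.12, adjusted p = 5.29e-16). Fam83g, a partner of SMAD proteins, was at least 2.67-fold higher (2.0, SE 0.15, adjusted p = 5.07e-12).

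The other differences ranged from 1.27 to 1.61, with lower bounds of 1.54-fold to 2.33-fold. They belonged to Ppm1j, a PP2C-type phosphatase (1.61), Agbl5, a tubulin deglutamylase (1.5), Slc38a4, an amino acid transporter (1.47), Eda2r, a receptor of the TNF family (1.46), Klhdc8b, a kelch-domain protein (1.45), Epha8, an ephrin receptor (1.44), Zfp609 (1.42), Foxs1, a forkhead factor (1.42), Iftap (1.37), Olfr1443, an olfactory receptor (1.35), Upk1a, a uroplakin (1.32), and Castor2, a homologue of an arginine sensor of mTORC1 (1.27). A brighter Castor2 probe, at 10.17 against 10.01, differed by 0.16 (adjusted p = 0.593). All 15 passed without standard-diet array 1 and without the 5 arrays, and 12 passed with array brightness as a covariate.

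Levels in the other diet groups, which did not enter the contrast, were as follows. H2-Q1 averaged 4.77 on high-fat and 4.69 on resveratrol diet in WT, but 6.99 to 7.10 in the 4 Csbm/m groups, where restriction made a difference of -0.07 (adjusted p = 0.87). Over all 264 higher probes the median level was 6.41 in restricted WT, 5.45 in standard-diet WT, 5.53 and 5.47 in high-fat and resveratrol WT, and 6.35 to 6.41 in the Csbm/m groups. The gap between restricted and standard-diet WT is what chose these probes and is given as a description. Whether restricted WT arrays shared a chip or a run with Csbm/m arrays was not tested, since no file used here records it.

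Other probes of the same genes seldom followed. Of the 242 higher genes, 83 had another tested probe and 7 had another that was called higher: Cdh11, Chpt1, Map3k20, Ppp4r3b, Rbm12, Rgs3 and Zfp78. The 116 other probes had a median difference of 0.08, from -0.81 to 1.35, and 71 of them were positive. Lig1, a DNA ligase, was named as the lowest p of the DNA repair list: its called probe rose by 1.26 (adjusted p = 2.42e-07) and was undetected on the standard-diet arrays, while its other probes differed by 0.37, 0.45 and 0.05. Of the 33 DNA repair probes it was the only call, and the list's median was 0.12.

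Glucocorticoid-responsive genes were mostly at lower values under restriction, with few calls. In the list of 24 tested probes, 1 was called higher and 1 lower, the median difference was -0.33 and 20 differences were negative, beside a median of 0.00 over all probes. Map3k6, a stress kinase, was the lower call, with 6.69, 6.51, 7.62 and 6.33 against 8.00, 7.68, 7.56 and 8.66. Its restricted array 3 overlapped the standard-diet range (-1.19, adjusted p = 0.0475). The call was lost without standard-diet array 1 (-1.18, adjusted p = 0.106) and without the 5 low-marker arrays (-1.18, adjusted p = 0.0585). Hif3a, an inhibitory subunit of the hypoxia factor family, was the higher call, with 6.74, 6.58, 6.48 and 6.36 against 5.75, 5.52, 5.39 and 5.60 (0.97, adjusted p = 1.86e-05). Its means in the Csbm/m groups were 6.44 to 6.76. Before normalization its intensities began at 108.8 on restricted arrays and ended at 120.6 on standard-diet arrays, so the groups overlapped on that scale. With array brightness as a covariate the Hif3a call was lost (0.61, limma adjusted p = 0.969).

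Sgk1, a kinase induced by glucocorticoids, read 12.16, 11.75, 12.55 and 12.76 under restriction and 12.56, 13.46, 13.20 and 14.10 on the standard diet. Standard-diet array 1 was the lowest of its group and overlapped the restricted arrays. With all arrays the difference was -1.02 (SE 0.32, adjusted p = 0.084). Without array 1 alone it was -1.28 (adjusted p = 0.0286). Nfkbia, the NF-kappa-B inhibitor, differed by -0.99 without array 1 alone and did not pass (limma adjusted p = 0.054). Without the 5 low-marker arrays the Sgk1 difference was also -1.28 (SE 0.31, limma adjusted p = 0.0195). Nfkbia then passed too (-0.99, SE 0.26, limma adjusted p = 0.0359), as did Tmem252. In that fit 3 of the 24 probes were called lower and 1 higher, and the median was -0.46. Fkbp5, a co-chaperone of the glucocorticoid receptor, read 7.21, 7.13, 7.89 and 7.23 against 7.97, 8.16, 8.15 and 8.83, without overlap and without passing (-0.92, adjusted p = 0.281). Against the other ad libitum diets, with all arrays, Sgk1 differed by -1.0 (high-fat, adjusted p = 0.0783) and -0.87 (resveratrol, adjusted p = 0.0937).

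The remaining lists held 1 call or none. Cholesterol synthesis and uptake had Srebf2 as its lower call among 24 probes, with a median of -0.16 and 18 negative differences. Chac1, a glutathione-degrading target of the amino acid response, was the call among 21 fasting and nutrient-stress probes. It read 9.63, 9.43, 9.8 and 9.52 against 10.14, 10.13, 10.29 and 10.10 (-0.57, adjusted p = 0.0324), so every restricted array was lower. The call was lost without standard-diet array 1 (-0.58, adjusted p = 0.0663) and with WT arrays alone (adjusted p = 0.0531), and it was kept without the 5 arrays (adjusted p = 0.0496). Ctsd, a lysosomal protease, was the higher call among 26 autophagy and lysosome probes (0.92, limma adjusted p = 0.00233), whose median was 0.03. With array brightness as a covariate the Ctsd call was lost (0.32, limma adjusted p = 0.996). C1qb was the only call among 32 interferon, MHC and complement probes (median 0.06).

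No probe was called in the lists of circadian clock (median 0.08), insulin and IGF1 signalling (-0.01), NAD metabolism and sirtuins (0.04), antioxidant and NRF2 (0.08), heat shock (0.07), synaptic transmission (0.04) or ribosomal protein genes (-0.03). Without the 5 low-marker arrays Hspa1a, an inducible heat shock chaperone, was called higher in the heat shock list (1.23, adjusted p = 0.0417), where it stood at 1.19 with all arrays (adjusted p = 0.0956) and 1.23 without standard-diet array 1 alone (adjusted p = 0.159). The mitochondrial respiratory chain list had a median of 0.13 with 32 of 37 differences positive and no call, and its lowest p was that of Ndufa1 (0.29, adjusted p = 0.122). In the clock list Per2, a repressor of the clock, came closest, with 10.96, 11.32, 11.13 and 11.43 against 10.17, 10.38, 10.73 and 10.70 (0.71, adjusted p = 0.0956). Immediate early genes had a median of -0.56, which became -0.08 without standard-diet array 1. On that array the list's mean level was 10.33, against 8.52 to 8.95 on the other standard-diet arrays.

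Among cell type markers other than microglia no probe was called. The granule cell median was 0.74 with all arrays and 0.22 without standard-diet array 1, and the Purkinje cell median 0.39 and 0.34. Choroid plexus (0.30 to -0.24) and brainstem and spinal cord neurons (0.31 to -0.26) changed sign when that array was left out. Oligodendrocyte genes gave -0.18 and -0.32, and their precursors -0.11 and -0.16. Endothelium and pericytes gave -0.14 and -0.31, meninges -0.02 and -0.21, astrocytes 0.13 and 0.06, interneurons 0.11 and 0.06, and blood 0.01 and 0.10.

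**Figure D5:**
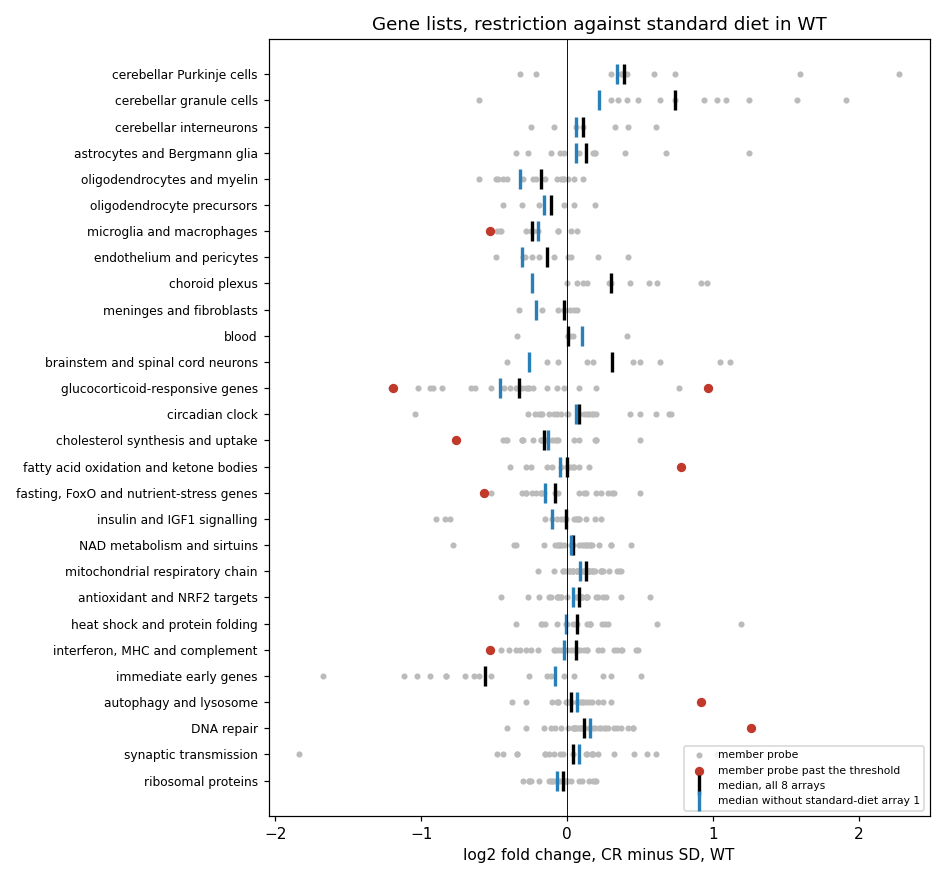
Log2 difference between restricted and standard-diet WT for each tested probe of the gene lists (grey, or red where called), with the median in black and the median without standard-diet array 1 in blue. The medians of immediate early genes (-0.56 and -0.08) and granule cell markers (0.74 and 0.22) depend on that array, while that of the glucocorticoid list is negative with and without it (-0.33 and -0.46).

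The other WT diets show how far the calls go beyond the standard-diet group. Restriction differed from the high-fat diet in 457 probes (3.07%), 321 higher and 136 lower (2.16% and 0.914%). It differed from resveratrol in 589 probes (3.96%), 361 higher and 228 lower (2.43% and 1.53%). All these comparisons share the restricted arrays, so they are not independent. Of the 264 higher probes, 172 were also called higher against high-fat diet and 205 against resveratrol. Of the 60 lower probes, 14 were also called lower against high-fat diet and 34 against resveratrol. The standard diet differed from the mean of these ad libitum diets in 4 probes, all lower on the standard diet (0.0269%).

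The effect of restriction differed between the genotypes for 120 probes that rose more in WT (0.806%) and 9 that fell more in WT (0.0605%). Of the 264 higher probes 118 were among the former, and of the 60 lower probes 4 were among the latter. The interaction contains the WT difference that chose these probes, so this overlap is in part built in and is given as a description. In Csbm/m, restriction itself gave 2 higher (0.0134%) and 11 lower calls (0.0739%), a comparison added after the data were seen. Called in both genotypes were Acat1 among the higher (0.379% of the WT calls, 50% of the Csbm/m calls) and Fcrls, Wfdc18 and C1qb among the lower (5% and 27.3%), and none was called in opposite directions. Without the low-marker arrays, 1 higher (0.00672%) and 8 lower probes (0.0538%) were called there. Fcrls and Wfdc18 were still shared, with -1.52 (adjusted p = 0.00226) and -1.36 (adjusted p = 0.0265).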

How the data were processed

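The deposited table gives, per the file headers, a bead-averaged intensity on a linear scale for each of 25697 probes and array, not normalized, and beside it a detection p-value. The submitters' processing notes name GenomeStudio 1.9.0; what else was done is not given in the sources used here. The deposited series matrix holds a score that equals each array's z-score of log intensity, and it served as an alternative. All samples were matched to columns by name, and no pair of the 8 arrays held identical intensities.

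The 42 arrays of the diet study were normalized together with limma 3.58.1 in R 4.3.3 (neqc: background from the detection p-values, normexp, quantile, offset 16, log2). Probes with a detection p under 0.01 on at least 4 arrays were tested (14883). All 8 diet groups entered 1 linear model (lmFit, eBayes), and calls have a Benjamini-Hochberg adjusted p under 0.05, two-sided; SE is limma's. For a probe undetected in the dimmer group the fold is a lower bound against that group's lowest detected levels. The procedure was tested on simulated data. GEO's platform annotation, updated through RefSeq, gave 1 gene symbol for 23978 probes and none for 1719. Array measures were compared by exact permutation.

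Genes named by rule were the 15 largest increases and 15 largest decreases among called probes detected on all arrays of the brighter group, with 1 symbol and no overlap of arrays, and in each list the called members or, with none, the member with the lowest p. Members, lists and tests were chosen with earlier results of these data known. The labels do not say that replicate numbers pair the arrays, and the main fit did not pair them. Same-numbered arrays deviated together with r = 0.144, 0.026, 0.192 and 0.023, and the other pairs with r from -0.277 to 0.184. So few arrays cannot settle whether they were paired. Alternatives covered background correction, normalization, filter, arrays in the fit, weights, blocks and covariates. The 29 arrays of the injection study entered only the alternative that normalized all 71 arrays together.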

Additional observations from a re-analysis of the deposited data

Results flagged for a closer look

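In the groups of 4 arrays, 202 combinations of group and value were examined for an array far from the others, of which chance alone flags about 1 in 20; 16 were found, 12 of them in standard-diet array 1. On that array Pcp2 (6.14), Gabra6 (4.65), Pvalb (12.79), Aldoc (14.40) and Otx2 (7.47) were far below the other standard-diet arrays, as was the mean of the cerebellar markers (8.18). Fcrls (8.79), Cd86 (6.27), Wfdc18 (7.60), Aqp11 (8.72), Mark1 (9.90) and the mean intensity (1109.3) were far above them. The array's low cerebellar and high forebrain markers move with these values, and their part in them was not tested. Elsewhere, Sirt5 stood apart on standard-diet array 3 (8.86), Olfr1443 on restricted array 1 (6.66), and Fkbp5 (7.89) and Otx2 (9.90) on restricted array 3.

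The effect of restriction differed between WT and Csbm/m by limma's interaction test (adjusted p under 0.05) for 23 named genes. These genes were named through their WT difference, which is a term of this interaction. Their interaction values are thus not independent of that choice and are given as a description. The difference of log2 changes, WT minus Csbm/m, was 2.22 for H2-Q1, 2.07 for Fam83g, 1.74 for Ppm1j, 1.66 for Epha8, 1.65 for Agbl5, 1.58 for Eda2r, 1.52 for Zfp609, 1.51 for Klhdc8b and for Iftap, 1.48 for Upk1a, 1.46 for Olfr1443 and 1.37 for Slc38a4. It was 1.29 for Bmx, 1.26 for Castor2, 1.24 for Lig1 and for Foxs1, 1.20 for Hif3a, 1.13 for Zfp566, 1.10 for Ctsd, 0.93 for Zfp583, 0.91 for Ppp2r2c and 0.83 for Mga. Tapbp alone had a negative value, -1.03.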

How the results depend on the processing

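The number of higher calls, 264 in the main fit, stayed within 1.5 times under most alternatives. They numbered 779 with no filter, 600 with array weights, 171 with WT arrays alone, 156 when standard-diet array 1 was also left out, 139 with WT arrays alone and the number in the sample name as a block, 45 with brightness as a covariate and 36 among probes detected on all 8 arrays. Leaving out 1 array gave 191 to 257. A like count did not mean the same probes. Of the original 264, 211 were among the higher calls by z-score and 216 among those with background as a covariate. The lower calls (60) depended more on the choice: 302 by z-score (beside 299 higher), 97 by median centring, 327 unfiltered, 394 with weights, 39 with the 2 groups alone, 131 when these lacked standard-diet array 1, 27 with WT arrays alone, 15 when these lacked array 1, 13 with WT arrays alone and the sample-name block, 5 among probes detected on all 8 arrays, 0 with brightness, and 23 to 62 without 1 array. With background as a covariate there were 65 lower calls, but only 22 of them were among the original 60. With the series matrix values there were 67, of which 32 were among the original 60. Higher calls were 81.5% of all with neqc, and the median of all probes was -0.04 by z-score and -0.08 by median centring. The block on the title's replicate number gave 245 higher and 51 lower calls, within 1.5 times of the fit without it; the arrays share only a number.

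Against high-fat diet the calls were 457, then 286 by median centring, 2494 unfiltered, 226 with the groups alone, 243 with WT alone, 1574 with weights, and 216 to 895 without 1 array. Against resveratrol they were 589, then 2157 unfiltered, 385 with WT alone, 2514 with weights, 248 with brightness, 893 without the 5 arrays, and 370 to 1041 without 1 array. The standard diet against the other ad libitum diets gave 4, then 2 without background correction, 262 by z-score, 313 by median centring, 24 unfiltered, 0 with the groups alone, WT alone, background or brightness, 199 with weights, 2 with the title block, 1 without the 5 arrays, and 1 to 62 without 1 array. The interaction gave 120 and 9, in all then 427 unfiltered, 471 with weights, 37 with brightness, and 106 to 145 without 1 array. Fewer arrays or a changed set of tested probes enter several of these fits; otherwise the cause was not tested. With brightness as a covariate Chpt1 reversed to -0.05 and Erh to 0.07, and the cause was not tested. The brightness gap was -16200 to -17000 and the detection gap -4.26 to -4.92 percentage points without 1 array. Of the values of named genes under the alternatives, 2006 kept their side of the threshold and their sign, 396 lost the call, 38 gained it, 19 changed sign without a call in either fit, and 2 are the reversals above.

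The number of arrays limits the precision, diet and brightness cannot be told apart in the 8 arrays, and dim probes lie near the background, where a difference is a bound.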
